A study of Homo sapiens with 20 samples.

Results

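MicroRNA host genes are transcribed as long RNAs from which one or more microRNA hairpins are cut. The host genes described here were taken by name and type: every gene of GENCODE release 44 that is annotated as a lncRNA and named after a microRNA with the ending HG. There were 83 such genes, of which 78 had at least 1 transcript in the processed files and 64 were tested because both conditions held counts for them. The tested genes are part of 10346 lncRNAs and 27697 mRNAs and lncRNAs tested in all. The annotation places 131 microRNA genes on the same strand inside 81 of the 83 host genes, the exceptions being MIR7515HG and MIR670HG.

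A primary microRNA transcript is cut by the nuclear Drosha and DGCR8 complex, exported by exportin-5, cut again by Dicer and loaded into an Argonaute protein. The loaded microRNA pairs with messenger RNAs mainly through its seed, bases 2 to 8 counted from the 5′ end. Poly(A) RNA-seq measures polyadenylated host RNA and not the mature microRNA. Among host genes, MIR34AHG is a direct target of the transcription factor p53, MIR22HG encodes miR-22, which has also been linked to p53, and MIR17HG encodes the miR-17-92 cluster, which is activated by MYC and MYCN.

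NGP is a human neuroblastoma cell line. The 10 nutlin samples were cells given 8 µM of racemic nutlin-3, which binds MDM2 and keeps it from p53, and the 10 vehicle samples were cells given ethanol. All samples come from this 1 line, without a second line or an inactive compound, and the duration of treatment is not given in the sources used here. The study's methods call the samples biological replicates. The estimated counts per sample summed to between 14455477 and 19532971 read pairs.

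The adrenergic markers PHOX2A, HAND2, GATA3, ISL1, DBH, TH, CHGA and CHGB summed to between 2629.8 and 3037.5 TPM in vehicle and between 3266.7 and 4193.7 TPM in nutlin. They did not move alike: GATA3, TH, CHGA and CHGB rose, PHOX2A, HAND2 and ISL1 fell and DBH was not called. The signs of PHOX2A, ISL1 and DBH depended on how the samples were scaled. Markers of immune cells summed to at most 0.809 TPM in any sample, with CD3E at 0 throughout, endothelial markers to at most 0.971 TPM and epithelial markers to at most 1.97 TPM. The fibroblast markers COL1A1, PDGFRB and LUM summed to between 7.96 and 12.1 TPM in vehicle and to at least 9.94 TPM in nutlin. EPCAM, PECAM1 and COL1A1 rose after nutlin while PDGFRB and LUM fell. The part of these marker levels in the results below was not tested, and in bulk RNA a change in the number of cells and a change in RNA per cell cannot be told apart.

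The mature microRNAs that the results below turn on are printed here from RefSeq (GRCh38.p14), with the seed in capitals, because their host genes moved in different directions. The hairpin of miR-34a lies in an exon of MIR34AHG at chr1:9151668-9151777 on the minus strand. The hairpin of miR-22 lies in an exon of MIR22HG at chr17:1713903-1713987 on the minus strand. The remaining lines give miR-7, miR-222 and miR-663a, whose host genes were higher after nutlin, and miR-503, whose host gene was lower. Positions of the hairpins are those of the annotation.
hsa-miR-34a-5p: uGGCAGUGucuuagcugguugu
hsa-miR-22-3p: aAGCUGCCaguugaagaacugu
hsa-miR-7-5p: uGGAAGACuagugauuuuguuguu
hsa-miR-222-3p: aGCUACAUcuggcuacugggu
hsa-miR-663a: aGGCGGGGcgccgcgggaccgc
hsa-miR-503-5p: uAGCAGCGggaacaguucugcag

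The 6 hairpins of the miR-17-92 cluster lie within chr13:91350605-91351391 on the plus strand. Their leading arms are shown because they fall into 4 seed groups, with miR-17-5p and miR-20a-5p sharing one seed and miR-19a-3p and miR-19b-3p another.
hsa-miR-17-5p: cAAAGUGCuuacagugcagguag
hsa-miR-18a-5p: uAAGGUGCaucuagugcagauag
hsa-miR-19a-3p: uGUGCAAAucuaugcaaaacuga
hsa-miR-20a-5p: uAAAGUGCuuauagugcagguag
hsa-miR-19b-3p: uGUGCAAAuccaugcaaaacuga
hsa-miR-92a-3p: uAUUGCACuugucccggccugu

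Of the 64 host genes tested, 24 were higher and 12 lower after nutlin, and 28 were not called (edgeR quasi-likelihood test, 5% FDR). Over all lncRNAs tested, 32.0% were higher and 6.36% lower, and over all mRNAs and lncRNAs 32.3% were higher and 26.5% lower, 58.8% in either direction. The host genes had 37.5% higher and 18.8% lower calls. Their median log2 fold change (LFC, nutlin over vehicle) was 0.27, against 0.50 for all lncRNAs and 0.19 for all genes. The groups did not overlap for 12 of the host genes that were higher and 9 that were lower, that is, every nutlin sample lay on one side of every vehicle sample. This was so for 8.32% of lncRNAs in the higher direction and 1.55% in the lower direction, and for 12.2% and 16.6% of all genes.

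Abundance differed widely among the host genes, and with it the number of calls. Values are CPM, the counts of a gene relative to all mRNA and lncRNA counts of its sample, scaled between samples by TMM. The mean over all samples reached 1 CPM in 26 host genes, of which 12 were higher, 11 lower and 3 not called. This mean takes in both conditions, so that a host with a large change can pass through 1 condition alone. MIR3659HG and MIR7-3HG, which were higher, had a mean under 1 CPM in vehicle, and MIR924HG and MIR99AHG, which were lower, in nutlin. The shares that follow use the same mean. Among the 2371 lncRNAs with at least 1 CPM, 53.7% were higher and 17.0% lower (70.6% either way), and among all genes at that level 34.8% were higher and 45.3% lower (80.2% either way). The other 38 host genes had a mean under 1 CPM, with 12 higher, 1 lower and 25 not called. Over all lncRNAs, 1273 of the 3312 higher calls and 402 of the 658 lower calls lay at 1 CPM or more. Over all genes these were 5285 of 8936 and 6875 of 7340. The plot of all lncRNAs by abundance and LFC shows both groups.

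**Figure D1:**
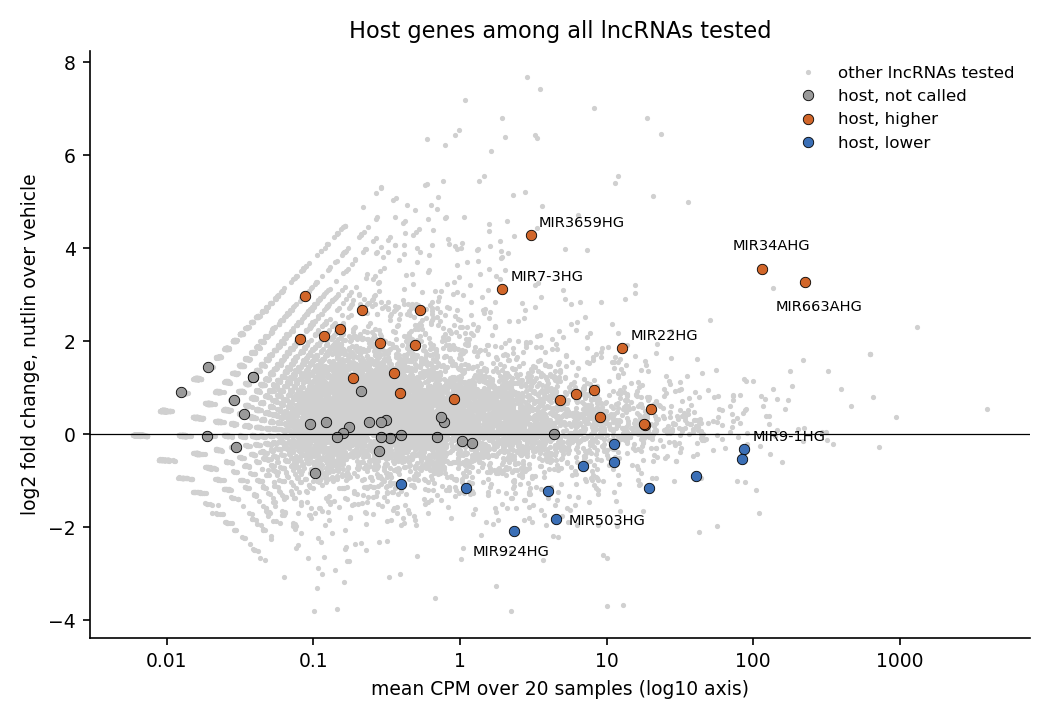
The horizontal axis gives the mean CPM over the 20 samples on a log10 axis and the vertical axis the log2 fold change of nutlin over vehicle, with 1 point per gene. Small grey points are the lncRNAs tested, orange, blue and larger grey points the 64 host genes that were higher, lower or not called, and 11 of the 12 lower host genes lie at 1 CPM or more.

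MIR34AHG (ENSG00000228526.8, chr1:9148011-9198906, minus strand, GRCh38) rose in every nutlin sample. In vehicle its level was 13.1 CPM in the lowest sample, 18.6 at the median and 24.4 in the highest, and in nutlin 191, 212 and 231 CPM. The lowest nutlin sample lay above the highest vehicle sample. The mean went from 18.0 ± 4.15 (SD, n = 10) to 211.5 ± 10.9 CPM (n = 10), an 11.7-fold rise with an LFC of 3.55 ± 0.085 (SE) and a 95% interval of 3.38 to 3.73 (edgeR, adjusted p = 7.42e-25). On the per-length scale the level rose from 4.99 ± 1.17 to 65.0 ± 5.41 TPM.

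The level of MIR34AHG differed among the vehicle samples. Vehicle replicates 4, 5, 6 and 7 were between 13.1 and 14.7 CPM, while the other vehicle samples were between 18.2 and 24.4 CPM. CDKN1A, the p21 gene and a p53 target, was at 32.8 ± 11.3 CPM in vehicle and 1678 ± 159 CPM in nutlin. The labels give no batch that would set these 4 samples apart.

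MIR34AHG has 4 transcripts in the files, and 1 of them, MIR34AHG-204, holds the miR-34a hairpin in an exon. Its estimated count was 182 in the lowest vehicle sample, 291 at the median and 351 in the highest, against 2655, 3171 and 3338 in nutlin (LFC 3.50 ± 0.110, edgeR over all transcripts, adjusted p = 1.09e-16). The transcript MIR34AHG-202, a single exon that ends at chr1:9198906 and lies wholly upstream of the start of MIR34AHG-204 at chr1:9182392, was at 0 to 5 counts in vehicle and 88 to 139 in nutlin. MIR34AHG-203, which starts at chr1:9198703, had 0 to 3 counts in vehicle and 21.7 to 38.6 in nutlin, and was deposited with 529 bases against 4457 in the annotation used here. The groups did not overlap for any of the 3, and MIR34AHG-202 and MIR34AHG-203 were near 0 in vehicle.

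MIR34AHG-201 is matched over its whole length at 95.6% identity by LNCTAM34A, a lncRNA on the opposite strand, and the strand setting of the counting is not given in the sources used here. LNCTAM34A and MIR34AHG share 431 exonic bases on opposite strands. LNCTAM34A rose from 0.502 ± 0.185 to 22.2 ± 2.003 CPM (LFC 5.42 ± 0.112, adjusted p = 2.84e-26). MIR34AHG-201 had 0 to 2.43 counts in vehicle and 8.48 to 23.1 in nutlin, and its reads cannot be told apart from those of LNCTAM34A without strand. MIR34AHG-204 held 98.7% of the gene's counts in vehicle and 95.3% in nutlin.

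A p53 binding site consists of a pair of decamers with up to 13 bases between them. Exact matches to the p53 consensus were searched within 1000 bases of the annotated start of each host transcript in the files, a window chosen after the data were seen, on both strands at once, since the consensus is its own reverse complement. Among the 78 host genes with a transcript, 1 match was found, 229 bases downstream of the start of MIR34AHG-204. Around the start of each of 38912 genes, 0.29% of windows of the same length held such a match, although host genes had a window for every transcript start and these genes only 1. The match has no spacer and lies at chr1:9182144-9182163 on GRCh38, printed on the strand of MIR34AHG with both decamers in capitals.
p53 consensus match in MIR34AHG: GGGCTTGCCTGGGCTTGTTC

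In the shorter RefSeq promoter windows, from 250 bases before to 50 after a start, 64 of the host genes were matched with 80 windows. A single decamer was found in 7 windows of 6 host genes (MIR17HG, MIR100HG, MIR99AHG, MIR302CHG, MIR497HG and MIR34BHG) and in 6.63% of all 35116 promoters. A pair of decamers was found in none of the host windows and in 0.0285% of all promoters. The E-box CACGTG, the letters bound by MYC proteins, was found in the windows of MIR3659HG and MIR142HG and in 7.26% of all promoters. These matches describe letters in a window and do not show binding.

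MIR22HG (ENSG00000186594.16, chr17:1711447-1717174, minus strand) rose 3.62-fold. Its level was 4.52, 5.43 and 6.81 CPM in the lowest, median and highest vehicle sample and 16.3, 20.03 and 22.5 CPM in nutlin, with no overlap. The LFC was 1.85 ± 0.075 with an interval of 1.70 to 2.01 (edgeR, adjusted p = 3.54e-19). The per-length level rose from 3.33 ± 0.406 to 13.3 ± 2.002 TPM. The transcript with most counts, MIR22HG-208, rose from 69.0 ± 14.4 to 240.2 ± 24.2 counts (LFC 1.76 ± 0.113, adjusted p = 2.89e-11). It holds the miR-22 hairpin in an exon, as MIR22HG-201 and MIR22HG-212 do, whose counts rose too (LFC 1.85 and 3.73, adjusted p = 0.0334 and 0.000452), the latter deposited with 931 bases against 2876 in the annotation used here.

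Other hosts of microRNAs linked to p53 gave small counts or no call. MIR194-2HG, the host of the miR-194-2 and miR-192 hairpins, had 1.28 ± 0.254 CPM in vehicle and 1.12 ± 0.453 in nutlin, with an LFC of −0.19 and an interval of −0.61 to 0.23. MIR200CHG was not called at a mean of 0.0206 CPM in vehicle and 0.0571 CPM in nutlin. MIR34BHG, the host of miR-34b and miR-34c, has no transcript in the files.

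MIR17HG (ENSG00000215417.14, chr13:91347686-91397592, plus strand) fell. In vehicle the lowest, median and highest samples had 10.9, 13.4 and 16.4 CPM and in nutlin 7.89, 9.30 and 10.05 CPM. The groups did not overlap, although the gap between the highest nutlin sample and the lowest vehicle sample was small. The mean of 13.5 ± 2.40 CPM fell to 9.02 ± 0.746 CPM, an LFC of −0.59 ± 0.085 with an interval of −0.76 to −0.41 (edgeR, adjusted p = 5.83e-07). The per-length level was 12.4 ± 2.65 TPM in vehicle and 7.50 ± 0.960 TPM in nutlin.

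The vehicle samples fell at 2 levels of MIR17HG with none in between. Vehicle replicates 3, 5, 6, 10 and 11 were between 10.9 and 11.7 CPM and vehicle replicates 4, 7, 8, 9 and 12 between 15.1 and 16.4 CPM. Vehicle replicates 5 and 6 were among the low samples of MIR34AHG as well, whereas vehicle replicates 4 and 7 were low for MIR34AHG and high for MIR17HG. The nutlin samples spanned 7.89 to 10.05 CPM.

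**Figure D2:**
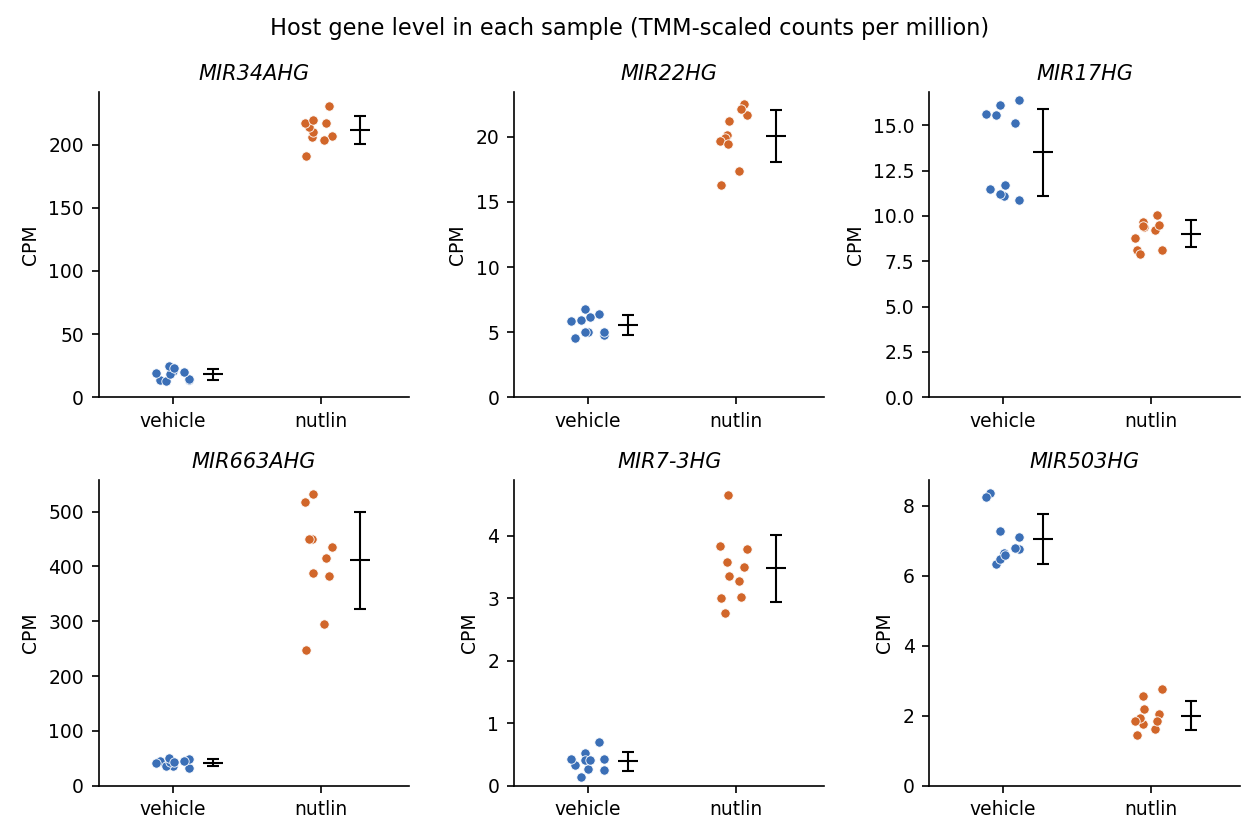
Each panel gives the TMM-scaled CPM of 1 host gene on a linear axis from 0, with 1 point per sample, 10 vehicle samples in blue and 10 nutlin samples in orange, and the mean with its SD in black. The groups do not overlap in any of the 6 panels, and the vehicle samples of MIR17HG sit at 10.9 to 11.7 and at 15.1 to 16.4 CPM.

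The cluster lies in an intron of MIR17HG-201 and in an exon of MIR17HG-203. MIR17HG-201 fell from 111.8 ± 25.8 to 66.2 ± 9.29 counts (LFC −0.80 ± 0.120, edgeR, adjusted p = 1.96e-05). MIR17HG-203 fell from 94.6 ± 24.3 to 72.7 ± 9.19 counts (LFC −0.41 ± 0.126, adjusted p = 0.0189). The share of the gene's counts on MIR17HG-201 went from 54.2% ± 4.06 to 46.9% ± 5.12, a difference of −7.24 percentage points (two-sided permutation test, adjusted over all genes, p = 0.0127). The deposited length of MIR17HG-203 was 2845 bases against 5511 in the annotation used here, so the exon that holds the cluster may differ from the one the reads were assigned to.

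**Figure D3:**
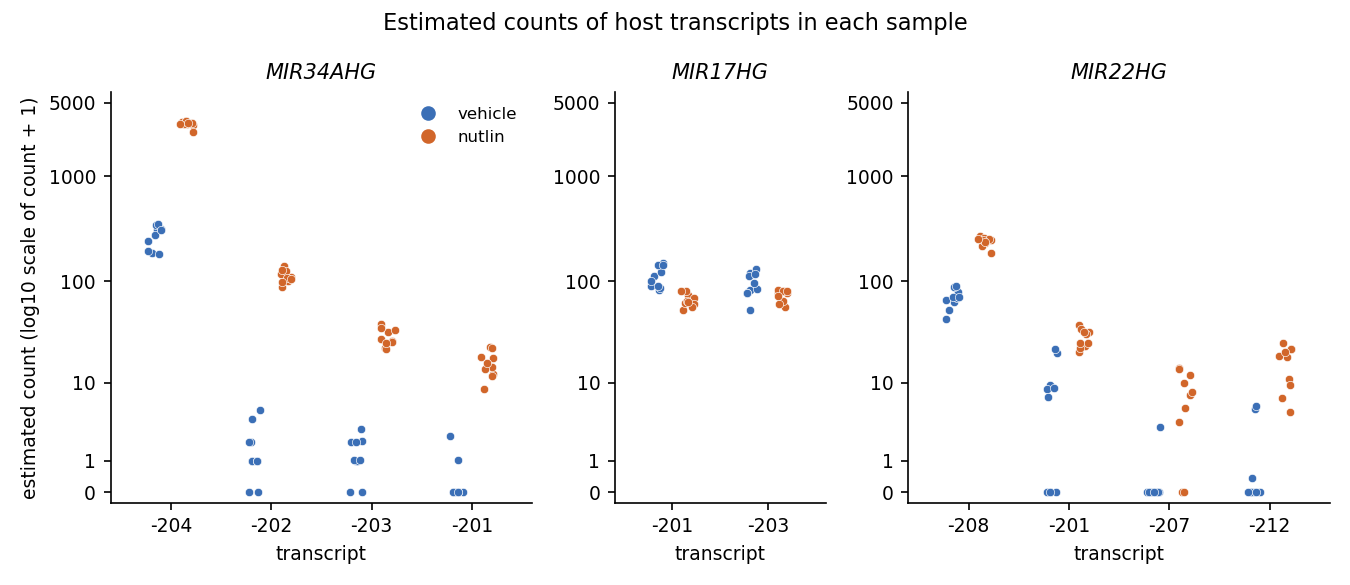
Each panel gives the estimated counts of the transcripts of 1 host gene on a log10 axis of count + 1, with 1 point per sample, vehicle in blue and nutlin in orange. MIR34AHG-204 goes from 182 to 351 counts in vehicle to 2655 to 3338 in nutlin, both MIR17HG transcripts fall, and MIR22HG-208 rises from 43.3 to 90.1 counts to 186 to 271.

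MIR503HG, the host of miR-503, which is known to hold back the cell cycle, fell from 7.05 ± 0.717 to 1.997 ± 0.411 CPM (LFC −1.82 ± 0.103, edgeR, adjusted p = 1.11e-15). Its samples ranged from 6.33 to 8.37 CPM in vehicle and from 1.44 to 2.76 CPM in nutlin. MIR4435-2HG fell from 5.56 ± 1.32 to 2.38 ± 0.573 CPM (LFC −1.22 ± 0.137). Its most abundant transcript, MIR4435-2HG-203, is matched over its whole length by CYTOR at 99.0% identity, so that the split of reads between them is uncertain. CYTOR fell as well, from 3.13 ± 0.675 to 1.04 ± 0.226 CPM, and so did BCL2L11, which shares 727 exonic bases with MIR4435-2HG on the opposite strand (LFC −0.81 ± 0.212).

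MIR155HG and MIR181A1HG, the hosts of miR-155 and of miR-181a-1 and miR-181b-1, rose at low counts. MIR155HG had 0 to 2 counts in vehicle samples and 1 to 10 in nutlin samples (LFC 2.67 ± 0.455, edgeR, adjusted p = 7.78e-06). MIR181A1HG had 0.203 ± 0.197 CPM in vehicle and 0.507 ± 0.194 CPM in nutlin (LFC 1.32). MIR210HG, the host of the hypoxia-induced miR-210, was the 1 host gene under 1 CPM that fell, from 0.535 ± 0.248 to 0.252 ± 0.185 CPM (LFC −1.07 ± 0.347, adjusted p = 0.00922). Both MIR181A1HG and MIR210HG were picked for mention after their values were seen.

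The let-7 family restrains growth and stem cell genes, and 7 host genes carry a mature microRNA with its seed, of which 6 were tested. The 3 mature forms below share the seed and differ further along, and their host genes did not move together. Copies of let-7a are annotated in MIRLET7A1HG, MIRLET7BHG and MIR100HG, so this form does not belong to a single host.
hsa-let-7i-5p: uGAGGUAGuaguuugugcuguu
hsa-let-7b-5p: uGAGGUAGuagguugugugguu
hsa-let-7a-5p: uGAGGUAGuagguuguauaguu

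MIRLET7IHG rose from 16.4 ± 1.6 to 24.0 ± 1.73 CPM (LFC 0.55 ± 0.056, edgeR, adjusted p = 7.21e-10), and its 13.7 to 18.9 CPM in vehicle lay below its 20.8 to 25.8 CPM in nutlin. MIRLET7BHG fell from 8.44 ± 1.01 to 5.30 ± 0.436 CPM (LFC −0.67 ± 0.076, adjusted p = 5.85e-09), with 6.68 to 10.2 CPM in vehicle and 4.62 to 6.09 CPM in nutlin. MIRLET7A1HG rose at a very low level, from 0.0400 ± 0.0483 to 0.197 ± 0.114 CPM (LFC 2.11 ± 0.545, adjusted p = 0.00133), and was picked for mention after its values were seen.

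MIR99AHG and MIR100HG each hold a miR-99 or miR-100, a let-7 and a miR-125b. MIR99AHG fell from 1.52 ± 0.423 to 0.692 ± 0.300 CPM (LFC −1.14 ± 0.222, edgeR, adjusted p = 5.15e-05), with overlap between the groups. MIR100HG had 11.99 ± 1.13 CPM in vehicle and 10.4 ± 1.03 CPM in nutlin, an LFC of −0.20 ± 0.066 that passed the test (adjusted p = 0.0098). That call did not hold with DESeq2, with fewer genes tested, with an offset for transcript length or with library totals, where the adjusted p was 0.0504, 0.0888, 0.332 and 0.915. Per length its level was 5.56 ± 0.912 TPM in vehicle and 6.25 ± 1.27 TPM in nutlin, which is the opposite order. The transcript with most counts, MIR100HG-201, fell (LFC −0.41 ± 0.112) while MIR100HG-216, deposited with 950 bases against 3003 in the annotation used here, rose (LFC 1.41 ± 0.332).

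Hosts of neural microRNAs ranged from among the most abundant host genes to undetected. MIR9-1HG and MIR9-3HG carry the same mature miR-9-5p, a regulator of neural progenitors, at different loci.
hsa-miR-9-5p: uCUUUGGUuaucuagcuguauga

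MIR9-1HG fell from 96.5 ± 4.26 to 77.6 ± 6.32 CPM (LFC −0.31 ± 0.041, edgeR, adjusted p = 1.14e-07), and MIR9-3HG from 53.1 ± 4.37 to 28.7 ± 3.65 CPM (LFC −0.89 ± 0.061, adjusted p = 1.21e-13). Neither gene had overlapping groups. The interval of MIR9-1HG ran from −0.40 to −0.23 and that of MIR9-3HG from −1.01 to −0.76. The difference between them was not tested. Of the transcripts of MIR9-1HG, MIR9-1HG-220 fell from 663.1 ± 72.6 to 481.6 ± 54.5 counts and MIR9-1HG-212 from 146.3 ± 28.2 to 57.5 ± 13.96 counts, whereas MIR9-1HG-228 had 233.3 ± 46.9 and 279 ± 30.8 counts and was not called (adjusted p = 0.0635).

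MIR124-1HG, the host of a neuron-specific microRNA, fell from 98.9 ± 5.78 to 68.3 ± 5.01 CPM (LFC −0.53 ± 0.042, edgeR, adjusted p = 1.94e-12). Its transcripts did not move alike. MIR124-1HG-203 fell (LFC −1.41 ± 0.171), while MIR124-1HG-205, the transcript that holds the hairpin in an exon, rose from 4.17 ± 2.96 to 10.97 ± 4.92 counts (LFC 1.33 ± 0.429, adjusted p = 0.0276).

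MIR137HG, the host of the neuronal miR-137, rose from 7.81 ± 1.12 to 10.2 ± 0.765 CPM (LFC 0.38 ± 0.076, edgeR, adjusted p = 6.98e-05). The transcript that carried most of its counts, MIR137HG-201, had 63.5 ± 17.2 counts in vehicle and 65.3 ± 9.94 in nutlin. MIR137HG-202 and MIR137HG-206 rose (LFC 0.72 and 0.77, adjusted p = 0.00937 and 0.0121). MIR137HG shares 494 exonic bases with DPYD on the same strand, which fell (LFC −1.22 ± 0.084).

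MIR7-3HG, the host of a copy of miR-7, rose from 0.387 ± 0.155 to 3.48 ± 0.540 CPM (LFC 3.12 ± 0.171, edgeR, adjusted p = 5.17e-16). It had 2 to 12 counts in vehicle samples and 43 to 71 in nutlin samples. Its transcript MIR7-3HG-207 was at 0 in all vehicle samples and at 5.54 to 20.6 counts in nutlin. MIR124-2HG had no count in any sample and MIR219A2HG 2 counts in all.

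The remaining hosts included the one with the most counts after nutlin. MIR663AHG (chr20:26167817-26251546, minus strand) had 31.6, 43.6 and 50.2 CPM in the lowest, median and highest vehicle sample and 247, 426 and 532 CPM in nutlin. It rose 9.76-fold (LFC 3.29 ± 0.112, edgeR, adjusted p = 4.22e-21). Its nutlin samples had an SD of 89.02 CPM on a mean of 411 CPM. The lowest were nutlin replicate 4 at 246.7 CPM and nutlin replicate 6 at 294.4 CPM. Its 3 main transcripts, MIR663AHG-223, MIR663AHG-228 and MIR663AHG-229, rose by an LFC of 3.17, 3.23 and 3.58. The deposited lengths of these were 613, 486 and 553 bases against 1226, 1276 and 1242 in the annotation used here.

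MIR3659HG had the largest LFC of the 64 host genes tested. It went from 1 to 7 counts per sample in vehicle to 76 to 106 in nutlin, or from 0.292 ± 0.143 to 5.78 ± 0.488 CPM (LFC 4.29 ± 0.157, interval 3.96 to 4.61, edgeR, adjusted p = 2.92e-20). Of the low hosts, MIR222HG, whose microRNAs miR-221 and miR-222 share a seed, rose from 0.138 ± 0.091 to 0.930 ± 0.324 CPM (LFC 2.68 ± 0.309, adjusted p = 8.29e-09). Its groups did not overlap, at 0 to 5 counts per vehicle sample and 7 to 25 per nutlin sample. MIR3681HG rose from 0.201 ± 0.154 to 0.791 ± 0.256 CPM (LFC 1.92 ± 0.325, adjusted p = 7.33e-06).

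Smaller rises were called for 5 more hosts above 1 CPM. MIR1302-9HG rose from 5.63 ± 0.783 to 10.9 ± 0.862 CPM (LFC 0.95 ± 0.075), but copies of parts of it, such as MIR1302-2HG over 34.9% of its transcript at 99.8% identity, make its counts uncertain. MIR130AHG rose from 4.34 ± 0.656 to 7.94 ± 0.984 CPM (LFC 0.87 ± 0.090), while YPEL4, which overlaps it on the opposite strand, fell (LFC −1.82) and CLP1, which overlaps it on the same strand, was not called. MIR762HG rose from 3.63 ± 0.863 to 6.04 ± 1.02 CPM (LFC 0.74 ± 0.125), and BCL7C, on the opposite strand, fell (LFC −0.51). MIR4453HG and MIR23AHG rose by an LFC of 0.22 ± 0.057 and 0.20 ± 0.061 with overlapping groups, and MIR23AHG shares 2310 exonic bases with ZSWIM4 on the opposite strand, which rose by an LFC of 0.52.

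MIR924HG and MIR600HG fell. MIR924HG went from 3.802 ± 0.693 to 0.891 ± 0.211 CPM, the largest fall among hosts with at least 1 CPM (LFC −2.08 ± 0.141, edgeR, adjusted p = 8.47e-14). MIR600HG went from 26.8 ± 2.45 to 12.1 ± 1.82 CPM (LFC −1.15 ± 0.072, adjusted p = 1.34e-14). It shares 254 exonic bases on the same strand with STRBP, which also fell (LFC −1.15 ± 0.042). MIR181A2HG and MIR3677HG were not called, with intervals of −0.20 to 0.23 and −0.49 to 0.22.

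**Figure D4:**
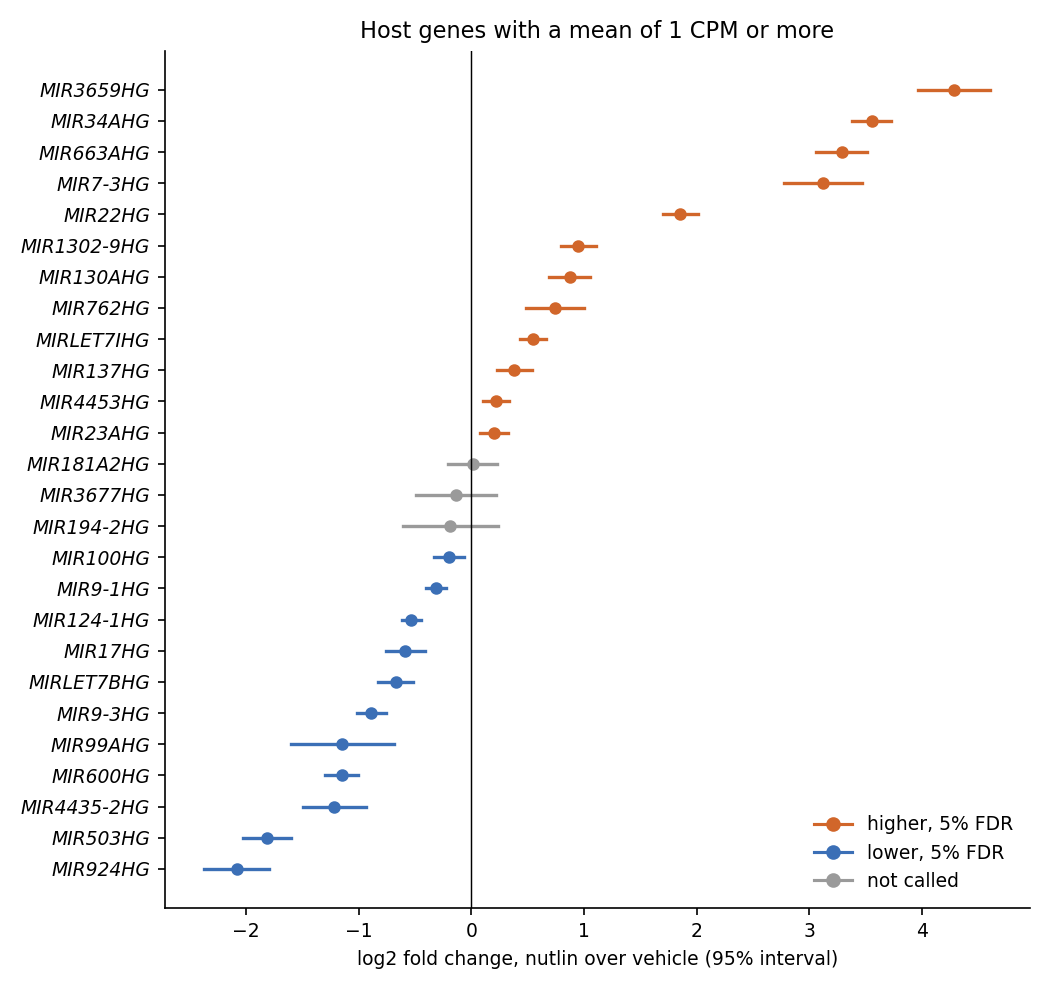
The horizontal axis gives the log2 fold change of nutlin over vehicle with its 95% interval for the 26 host genes that reached 1 CPM on average, 1 per line and in order of LFC, in orange where higher, blue where lower and grey where not called. The values run from −2.08 for MIR924HG to 4.29 for MIR3659HG, and 3 intervals in grey include 0.

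Per length, the order of the hosts changed between the conditions. In vehicle MIR663AHG was highest with 109 ± 13.5 TPM, before MIR9-1HG with 71.5 ± 3.13, MIR124-1HG with 43.5 ± 3.49, MIR9-3HG with 22.5 ± 2.60 and MIR503HG with 17.7 ± 3.15 TPM. In nutlin MIR663AHG had 1057 ± 241 TPM and MIR34AHG was next with 65.0 ± 5.41, before MIR9-1HG with 49.9 ± 3.58 and MIR124-1HG with 30.9 ± 2.78 TPM. MIR9-3HG, MIR3659HG, MIR22HG and MIR23AHG followed with 15.05 ± 2.27, 14.1 ± 1.4, 13.3 ± 2.002 and 12.3 ± 1.13 TPM, neighbours that lay within an SD of each other. Summed over all host genes, the level was 354.5 to 401.2 TPM in vehicle and 942.7 to 1740.0 TPM in nutlin. Of the mean sum of 376.4 TPM in vehicle and 1355.9 TPM in nutlin, MIR663AHG alone held 109 and 1057 TPM. These values rest on the deposited lengths, which for the main transcripts of MIR663AHG are shorter than in the annotation used here. Its rank in vehicle and its part of the sums are therefore uncertain.

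Of 219 host transcripts tested, 38 were higher and 29 lower, against 12.1% higher and 10.4% lower among all transcripts. The share of counts on the most abundant transcript could be tested in 15 host genes and differed in 9 (two-sided permutation test with 100000 resamples), whether p was adjusted over these 15 genes or over the 11990 genes that met the same minimum. It differed in 33.4% of the latter and in 24.8% of the 882 lncRNAs among them. Of the 9 host genes, the share was smaller after nutlin in 7 and larger in MIR124-1HG and MIR130AHG. MIR34AHG-204 went from 98.7% ± 1.04 to 95.3% ± 0.412 (adjusted over all genes, p = 0.00024, from the smallest p that the permutation resamples can give). The largest difference with a call was that of MIR4435-2HG-203, from 50.3% ± 5.73 to 33.0% ± 11.2. The 2 transcripts of MIR600HG differ by 7 bases in length, and the share of MIR600HG-201 had an SD of 37.7 percentage points in vehicle and 41.4 in nutlin, so that counts of the gene, but not of each transcript, can be told apart here.

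**Figure D5:**
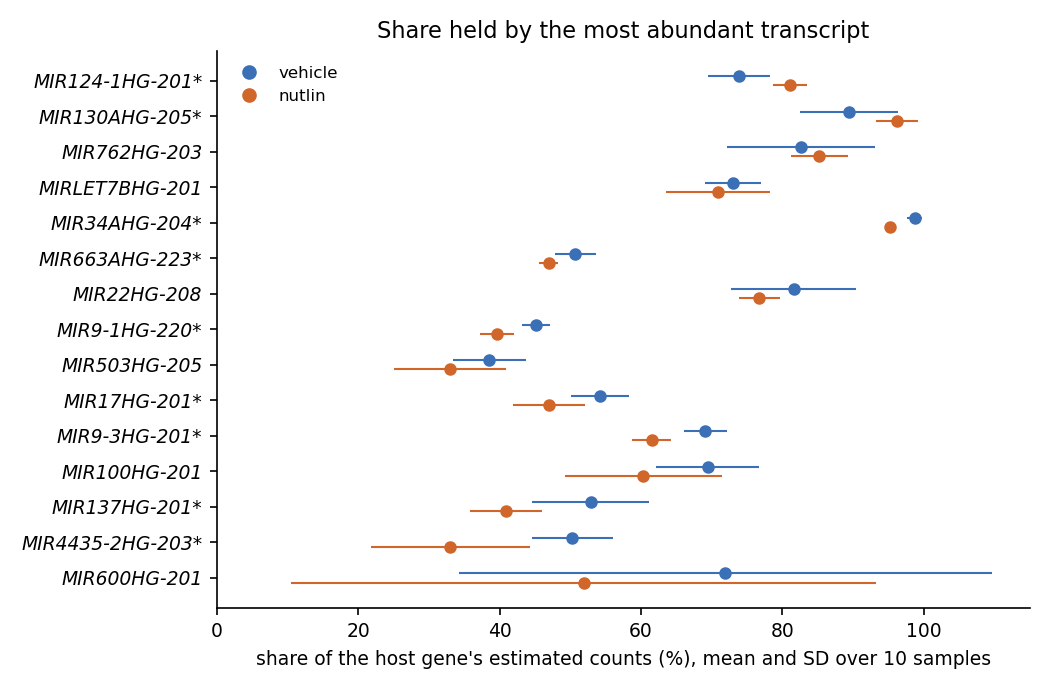
The horizontal axis gives the share, in percent, of a host gene's estimated counts on its most abundant transcript, as the mean with SD over 10 vehicle samples in blue and 10 nutlin samples in orange, for the 15 genes tested, with an asterisk where the adjusted p is below 0.05. The share of MIR9-3HG-201 falls from 69.1% to 61.5% and that of MIR124-1HG-201 rises from 73.8% to 81.1%.

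A hairpin was placed in an exon if at least 1 annotated transcript holds it there, even where other transcripts have it in an intron. The hairpin of MIR4435-2HG, for example, lies in an exon of 1 of 108 annotated transcripts, and those of MIR17HG in 3 of 16. A hairpin was placed in an intron only if no annotated exon of the host touches it. By this rule, 23 of the host genes tested hold all their hairpins in exons, 26 all in introns, 13 in both or at an exon's edge and 2 hold none. Of the first, 13 were higher and 4 lower. Of the second, 7 were higher and 3 lower, and of the third, 4 were higher and 5 lower. At 1 CPM or more, 6 of 11 were higher and 4 lower with hairpins in exons. With hairpins in introns 5 of 8 were higher and 2 lower, and with both 1 of 7 was higher and 5 lower. Of all lncRNAs at that level, 53.7% were higher and 17.0% lower. These counts were not compared by a test, and the placement is that of GENCODE release 44, in which 255 of the 428 host transcripts in the files have the length deposited.

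The 19 host genes that were not tested included 5 without a transcript in the files. Of the other 14, 11 had no count in any sample, MIR31HG and MIR223HG among them. MIR4432HG had 12 counts in nutlin and 0 in vehicle, MIR1302-2HG 2 in nutlin and 0 in vehicle, and MIR219A2HG 2 in vehicle and 0 in nutlin.

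The machinery that turns host RNA into microRNA was measured with 28 genes, all of them tested. Of these, 7 were higher, 18 lower and 3 not called, with a median LFC of −0.23. All 28 reached 1 CPM, and of all genes at that level 34.8% were higher and 45.3% lower. The median LFC of all genes was 0.19, and 0.034 among those that passed edgeR's filterByExpr. With library totals in place of TMM, 10 were higher and 12 lower (45.5% instead of 28.0% of the called genes higher), and DDX5, DICER1, HNRNPA1, TNRC6B and TNRC6C changed sign. The 4 members with the largest LFC among those called were LIN28A, KHSRP, TARBP2 and LIN28B. LIN28A and LIN28B bind let-7 precursors and hold back their maturation. LIN28A rose from 0.574 ± 0.168 to 1.64 ± 0.321 CPM (LFC 1.496 ± 0.175), and LIN28B, far more abundant, fell from 173 ± 20.8 to 103 ± 4.97 CPM (LFC −0.75 ± 0.053). KHSRP, an RNA-binding protein that promotes the cutting of some precursors, and TARBP2, a Dicer partner, fell (LFC −0.89 ± 0.033 and −0.82 ± 0.048). The following were picked for mention after their values were seen. DGCR8 fell from 164 ± 5.31 to 106 ± 6.04 CPM (LFC −0.63 ± 0.033) and DROSHA by 0.55 on the log2 scale. Among the Argonautes, AGO2 and AGO3 rose (LFC 0.59 ± 0.047 and 0.40 ± 0.060) while AGO1 and AGO4 fell (LFC −0.30 ± 0.033 and −0.54 ± 0.048).

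Reported targets of the microRNAs were listed to set their mRNA levels beside those of the hosts. Of 18 reported targets of miR-34a, 17 were tested, 5 were higher and 10 lower, with a median LFC of −0.41. The 4 with the largest LFC among those called were AXL, a receptor tyrosine kinase (LFC 3.60 ± 0.169), MYC (LFC 2.61 ± 0.269), the receptor PDGFRA (LFC −2.43 ± 0.097) and the Notch ligand JAG1 (LFC 1.78 ± 0.047). CCNE2 (LFC −1.54 ± 0.108), CDK4 (LFC −0.68 ± 0.049) and MYCN (LFC −0.41 ± 0.039) fell and were picked for mention after their values were seen. So were CD44 and CCND1, which rose (LFC 1.69 ± 0.103 and 0.45 ± 0.030), and CDK6, which was not called. Of 12 reported targets of the miR-17-92 cluster, 3 were higher and 8 lower, with a median LFC of −0.39. CDKN1A and THBS1 rose (LFC 5.68 ± 0.145 and 1.28 ± 0.184), while E2F1 and E2F2 fell (LFC −3.15 ± 0.045 and −3.21 ± 0.044). Over all mRNAs tested, 32.4% were higher and 38.5% lower. Most of these targets had a mean of at least 1 CPM, and of all genes at that level 34.8% were higher and 45.3% lower. The part of the microRNAs in these values was not tested, since mature microRNAs were not measured.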

How the data were processed

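RNA-seq of 10 vehicle and 10 nutlin samples of NGP cells was analysed from deposited files, grouped by their labels. Per the labels and the study's methods, the authors pseudo-aligned stranded paired-end poly(A) reads with kallisto 0.42.4 to GRCh38 transcripts of Ensembl release 85. The authors deposited estimated counts per transcript, without normalization, and TPM, which is scaled by effective length and by depth. The effective lengths that the authors deposited served 1 alternative.

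Transcripts were joined to GENCODE release 44 by identifier (96.05% matched), and estimated counts were summed per gene and rounded to whole numbers. Genes with a count in both conditions were fitted with edgeR 4.0.16 (quasi-likelihood, TMM, limma 3.58.1, R 4.3.3) at 5% FDR (Benjamini-Hochberg). Alternatives used DESeq2 1.42.0 and limma voom. Copies were sought with blastn 2.17.0. Shares were tested with scipy 1.17.1. The test was checked on simulated data. In the check of edgeR the changed genes had neither low counts nor small changes, so the recovery of such changes was not covered.

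Host genes with at least 1 CPM were named in the text with the 3 lowest adjusted p-values under it, and from each gene list up to 4 called members of the largest LFC, and genes that overlap a named host. Exceptions are marked where they occur. Some cell type markers are not reported here. The members and the lists were chosen with earlier results of these data known, and the motif search within 1000 bases and the share test over all genes were added after the data were seen. The labels' replicate numbers were not used as pairs. Samples held 14455477 to 19532971 read pairs, so that values under 1 CPM rest on few reads.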

Additional observations from a re-analysis of the deposited data

Results flagged for a closer look

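In 4 of 58 groups of 10 samples, 1 sample stood apart from the others of its group, by the gap to its nearest neighbour as a share of the group's range (critical value 0.466). Chance gives about 1 such group in 20. In MIR99AHG, vehicle replicate 11 was lowest with 0.487 CPM against 1.26 for the next (share of the range 0.532). In MIR3681HG, vehicle replicate 10 was highest with 0.550 CPM against 0.284 (0.484), and in MIR222HG the same sample was highest with 0.344 CPM against 0.184 (0.467). In MIR124-1HG, nutlin replicate 4 was highest with 79.7 CPM against 71.4 (0.472). The same sample was the nutlin sample nearest to vehicle in further hosts, such as MIR34AHG, MIR22HG, MIR663AHG, MIR9-1HG and MIR9-3HG. It was the farthest from vehicle in MIR503HG and MIR4435-2HG. These hosts were picked after their values were seen, and a cause was not tested.

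The files also list microRNA hairpins as transcripts of their own, which entered no comparison above. The hairpin of miR-770, annotated within MIR493HG, a host gene without a transcript in the files, had a median of 134 counts in nutlin and 25 in vehicle. Its counts were 15 to 30 in vehicle samples and 117 to 176 in nutlin samples (LFC 2.43 ± 0.144, edgeR over all transcripts, adjusted p = 6.44e-12). MIR493HG overlaps the lncRNA MEG3 on the same strand, and which RNA these counts come from was not tested.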

How the results depend on the processing

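Of 316 fold changes of the 29 named host genes under alternative settings, 312 kept their direction and their side of the threshold and none reversed. The other 4 were MIR100HG, with an LFC of −0.15 by DESeq2, −0.12 with filterByExpr, −0.08 with an effective length offset and −0.01 with library totals, a setting chosen after seeing the data. A stricter 1% FDR on the same fit was among the settings, and under it a direction could not change. Library totals shifted the LFC of a gene by a median of 0.187, and 26 host genes were then higher and 11 lower. With filterByExpr, which tested 30 host genes, 14 were higher, and 22 host transcripts were higher and 19 lower. The share of MIR22HG-208, with a difference of −4.82 percentage points that was not called (permutation test, adjusted over 15 genes as are the next values, p = 0.145), differed by −9.29 from TPM (adjusted p = 0.0463) and by −7.26 in the 16 samples that share a replicate number (adjusted p = 0.00777). MIR17HG in nutlin was at 6.27 by CPM per length instead of 7.50 TPM. The samples share only a number: correlations of the deviations of the 8 same-numbered pairs ran from −0.044 to 0.08, and 1 pair was best with its own number. With that replicate block, 22 host genes were higher and 12 lower, against 23 and 11 in the same 16 samples without it, and 14276 against 14993 of all genes were called. Genes under 1 CPM rest on few reads, and the assignment of reads to transcripts is an estimate whose error was not analysed here.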

Other observations

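Of 126 hairpin entries of host genes, 26 were tested, of which 6 were higher after nutlin, none lower and 20 not called (edgeR over all transcripts, where 12.1% were higher). The 6 were MIR770, MIR9-1, MIR9-3, MIR23A (2 counts in all vehicle samples and 21 in nutlin), MIR27A (4 and 23) and MIR548A1 (1 and 12). The hairpin entries of MIR9-1 and MIR9-3 had more counts in nutlin while their host genes fell. MIR9-1 had 1 count in all vehicle samples together and 21 in nutlin (LFC 3.27 ± 0.624, edgeR over all transcripts, adjusted p = 0.000329), and MIR9-3 had 2 and 11 (LFC 1.86 ± 0.662, adjusted p = 0.0463). Counts of this size rest on single reads, and both were picked after their values were seen. Another 5 had 0 counts in vehicle, so that they were not tested, and at least 5 in nutlin. These were MIR7-3 with 22 counts, MIR370 with 13, MIR34C, annotated within MIR34BHG, with 9 in 5 of 10 samples, and MIR493 and MIRLET7A1 with 5 each. They were picked through the condition where they are high, and the share of all transcripts that meet this rule was not computed. In the other direction, MIR22, MIR431 and MIR600 had 0 counts in nutlin, with 0.3, 0.6 and 0.6 in all vehicle samples together.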
